A study of Homo sapiens with 60 samples.

Results

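Cholesterol synthesis and uptake genes were examined in HepG2, an established human hepatocellular carcinoma line, as a list of 28 genes that encode enzymes from acetyl-CoA to cholesterol and proteins that sense or move sterol. A gene was used where at least 10 counts stood in at least 3 libraries, which left 27 of the 28, out of 60675 genes in the table. INSIG1, an endoplasmic reticulum protein that holds SREBP precursors in place, was listed at 0 to 3 counts per library and was not used. Whether so low a count stems from the cells or from the annotation and counting was not tested. The 27 genes were taken in pathway order: 8 lead from acetyl-CoA to the isoprenoid diphosphates, 3 from these to lanosterol through squalene, 10 from lanosterol to cholesterol, and 6 sense or carry sterol.

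Cells make cholesterol from acetyl-CoA through mevalonate, farnesyl diphosphate, squalene and lanosterol, and hepatocytes also take it up in lipoproteins. When sterol in the endoplasmic reticulum is low, SCAP escorts the transcription factor precursor encoded by SREBF2 to the Golgi, where proteases release its active part, and this factor raises transcription of most enzymes of the pathway. When sterol is high, INSIG proteins keep SCAP in the endoplasmic reticulum. The liver is a main site of this synthesis, and HepG2 cells keep both the pathway and its feedback.

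Messenger RNA was sequenced in 60 libraries, 3 in each of 20 groups, all after 24 h of treatment. One group received wortmannin, an inhibitor of phosphoinositide 3-kinases, at 10 µM, and 18 groups received a water extract of Poria Cocos, Atractylodis Rhizoma, Glycyrrhizae Radix, Panax Ginseng, Angelicae Gigantis Radix or Paeoniae Radix at 20, 100 or 500 µg/mL. The last group received the vehicle, given as 0.1% DMSO in the sample labels and as 2% in the series text; the labels of the other groups state no DMSO. Short names used here are Poria and Atractylodes for the first 2, then licorice and ginseng, and for the last 2 angelica and peony. Nothing in the labels tells whether replicate libraries stem from separate cultures, so every p-value measures the spread between these libraries, which may be technical. The titles of all 60 libraries carry the label BatchA. The sample descriptions number Poria and Atractylodes, licorice and ginseng, and angelica and peony as 3 sets, without saying what a set is. Wortmannin and vehicle each have a number of their own. An extract or wortmannin and its set therefore cannot be told apart against vehicle, whereas doses of 1 extract were compared within a set.

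Libraries held 20.9 to 33.4 M counts, with a median of 26.1 M. The hepatocyte markers were present in all 20 groups: group means of ALB ran from 10800 to 15800 CPM (counts per M counts of the TMM-scaled library size) and those of AFP from 13600 to 17200 CPM. Among markers of other cells, PTPRC was at 0 in all 20 group means, and COL1A1 did not exceed 0.481 CPM. Mitochondrially encoded genes took 8.1 to 15.2% of the counts of a library. Poria 100 µg/mL replicate 1 stood apart with 15.2%, against 11.2% and 11.9% in replicates 2 and 3. It also had the lowest total of the 60 libraries. Counts that rest on it, and the log2 changes of EBP, are given with and without it. The log2 changes of other genes at this dose include it. In bulk RNA, fewer cells of a type and less RNA per cell cannot be told apart.

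Together the 27 genes took 0.451 to 0.633% of the counts of a library. Their share was 0.603 to 0.633% in wortmannin libraries and 0.569 to 0.582% in vehicle libraries. It was 0.558 to 0.566%, 0.451 to 0.471% and 0.458 to 0.472% in Poria libraries at 20, 100 and 500 µg/mL, and 0.596 to 0.617%, 0.561 to 0.573% and 0.474 to 0.495% in licorice libraries at the same doses. The share was thus lowest in Poria at 100 and 500 µg/mL and in licorice at 500 µg/mL, with no overlap with 20 µg/mL of the same extract.

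On a scale of CPM per kilobase of exon, the level in vehicle was highest for HMGCS1, the cytosolic synthase that makes HMG-CoA, at 143 ± 2.72 (SD, n = 3), and next for FDFT1, the squalene synthase, at 132. SQLE, the squalene epoxidase, followed at 109, and MSMO1, a demethylase of the lanosterol stretch, at 94.1. The lowest levels per kilobase were those of PMVK, the phosphomevalonate kinase, at 7.17 ± 1.08, of GGPS1, which makes geranylgeranyl diphosphate on a branch, at 8.23, and of HSD17B7, a reductase of the same demethylase complex as MSMO1, at 9.88. Over the 20 group means, TM7SF2 had the widest span in CPM, 3.12-fold between wortmannin and Poria at 500 µg/mL. LSS followed at 2.05-fold, ERG28 at 1.96-fold, INSIG2 at 1.93-fold and HMGCS1 at 1.92-fold, while SCAP and GGPS1 had the narrowest, at 1.12-fold and 1.16-fold.

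**Figure D1:**
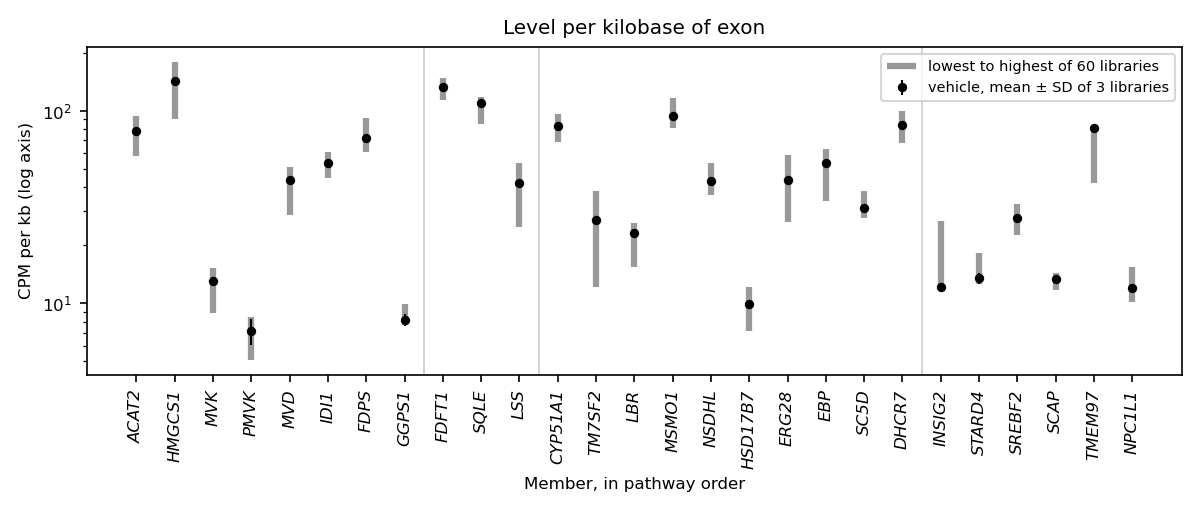
Level of each of the 27 genes in pathway order as CPM per kilobase of exon on a log axis; the grey bar runs from the lowest to the highest of the 60 libraries and the black point is the vehicle mean with its SD (n = 3). HMGCS1 and FDFT1 lie highest in vehicle and PMVK and GGPS1 lowest, and the bar of TM7SF2 is the widest relative to its level.

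Several genes share sequence with others, which can affect their counts. On the opposite strand, TMEM97 shares 361 exonic bases with IFT20, MVK shares 306 with MMAB, ACAT2 shares 397 with TCP1 and FDPS shares 693 with RUSC1-AS1, while ERG28 shares 35 with TTLL5. ACAT2 also shares 1141 bases with SOD2. On its own strand CYP51A1 shares 2844 exonic bases with ENSG00000285772 and GGPS1 shares 1422 with ENSG00000285053, in GENCODE v29. Neither of these same-strand partners, nor SOD2 under its identifier in that release, is among the genes of the deposited counts. No reads were therefore listed under these identifiers. The library kit was directional per the labels, but the strand setting of the counting is not given in the sources used here, so reads of opposite-strand partners may be mixed, and a directional kit does not part genes on the same strand. HSD17B7 has a near copy, HSD17B7P2, with a median of 241.5 counts per library beside 1362.5 for HSD17B7, and its values are uncertain to that extent.

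Promoter windows of 250 bases before to 50 after a transcript start were found for 24 of the 27 genes in RefSeq (GRCh38.p14). They were searched on both strands for 3 motifs of factors known to act on this pathway. The sterol regulatory element was searched as TCACNCCAC, the NF-Y box as CCAAT and the GC box as GGGCGG; no base of the windows printed here lies in more than 1 of the first 2 motifs. The NF-Y box was in a window of 19 of the 24 genes (79.2%), against 39.7% of 27305 genes with a window, and the GC box was in 21 of 24 (87.5%), against 48.3%. The strict sterol element was in 1 of 24 (4.17%), against 1.39%, and that gene was SREBF2. A match is a description of these letters, not a site or a cause. The windows of the genes whose values the results turn on are printed 5′ to 3′ on the strand of the gene, with the sterol element and the NF-Y box (CCAAT, or ATTGG for the other strand) in capitals. TM7SF2 is at chr11:65111622-65111921 (+), TMEM97 at chr17:28318950-28319249 (+), LSS at chr21:46228725-46229024 (−), HMGCS1 at chr5:43313363-43313662 (−), SREBF2 at chr22:41832855-41833154 (+) and INSIG2 at chr2:118088221-118088520 (+).
TM7SF2: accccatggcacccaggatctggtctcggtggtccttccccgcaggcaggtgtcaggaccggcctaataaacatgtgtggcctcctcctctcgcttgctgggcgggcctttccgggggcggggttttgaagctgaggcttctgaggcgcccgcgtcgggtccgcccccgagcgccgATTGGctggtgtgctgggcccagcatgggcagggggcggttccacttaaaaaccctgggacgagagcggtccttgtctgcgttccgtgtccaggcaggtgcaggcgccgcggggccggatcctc
TMEM97: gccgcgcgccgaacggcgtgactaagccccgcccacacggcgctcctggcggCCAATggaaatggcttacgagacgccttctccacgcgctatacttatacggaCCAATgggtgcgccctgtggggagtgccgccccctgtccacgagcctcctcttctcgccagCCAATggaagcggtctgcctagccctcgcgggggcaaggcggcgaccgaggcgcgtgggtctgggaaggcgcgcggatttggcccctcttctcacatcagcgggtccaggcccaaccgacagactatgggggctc
LSS: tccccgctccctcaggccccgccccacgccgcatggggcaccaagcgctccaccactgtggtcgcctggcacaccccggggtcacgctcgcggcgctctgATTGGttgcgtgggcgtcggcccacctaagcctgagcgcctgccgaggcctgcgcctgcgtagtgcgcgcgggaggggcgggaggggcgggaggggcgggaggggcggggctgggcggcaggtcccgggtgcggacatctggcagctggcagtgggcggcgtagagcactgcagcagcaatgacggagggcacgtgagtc
HMGCS1: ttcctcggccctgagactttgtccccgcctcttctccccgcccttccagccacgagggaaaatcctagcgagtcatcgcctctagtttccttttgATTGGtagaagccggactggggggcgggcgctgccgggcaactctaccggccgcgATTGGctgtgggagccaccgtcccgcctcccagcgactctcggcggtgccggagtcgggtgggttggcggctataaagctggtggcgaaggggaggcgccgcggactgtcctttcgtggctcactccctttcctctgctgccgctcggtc
SREBF2: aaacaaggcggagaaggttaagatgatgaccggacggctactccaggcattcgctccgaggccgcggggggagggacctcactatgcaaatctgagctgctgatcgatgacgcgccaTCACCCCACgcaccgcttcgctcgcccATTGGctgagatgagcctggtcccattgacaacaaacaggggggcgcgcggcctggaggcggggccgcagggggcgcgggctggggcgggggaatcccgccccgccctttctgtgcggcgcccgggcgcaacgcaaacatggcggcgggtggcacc
INSIG2: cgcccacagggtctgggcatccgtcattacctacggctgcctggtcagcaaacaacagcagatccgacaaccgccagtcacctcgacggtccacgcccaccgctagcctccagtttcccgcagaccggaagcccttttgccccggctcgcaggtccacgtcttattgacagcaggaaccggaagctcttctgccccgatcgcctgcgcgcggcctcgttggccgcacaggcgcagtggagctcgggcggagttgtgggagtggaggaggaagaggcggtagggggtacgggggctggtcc
TMEM97 has 3 NF-Y boxes and HMGCS1 has 2 in these 300 bases, and INSIG2 has none of the capitalised motifs.

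The doses of each extract were compared in edgeR's quasi-likelihood test over all 16093 genes that passed its count filter, with p-values adjusted by the Benjamini-Hochberg method over all of them and a threshold of 0.05. At 500 over 20 µg/mL, 21 of the 27 genes changed in Poria (19 lower, 2 higher) and 21 in licorice, all lower. In angelica 13 genes changed, all lower, and in peony 11 did (10 lower, 1 higher). In ginseng 2 genes fell and in Atractylodes 1 did. The shares of all genes called in the same comparisons were 43.5% in Poria, 21.3% in licorice, 1.24% in angelica, 3.52% in peony, 0.149% in ginseng and 0.0497% in Atractylodes. For rises alone the share was 22.2% in Poria and 1.78% in peony. For falls alone the shares were 21.3%, 10.2%, 0.696%, 1.74%, 0.124% and 0.0373% in the order Poria, licorice, angelica, peony, ginseng and Atractylodes. The median log2 change of the 27 genes was −0.20 in Poria, −0.31 in licorice, −0.14 in angelica, −0.12 in peony, −0.10 in ginseng and −0.07 in Atractylodes, whereas the median over all genes lay between −0.01 and 0.00 in each.

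**Figure D2:**
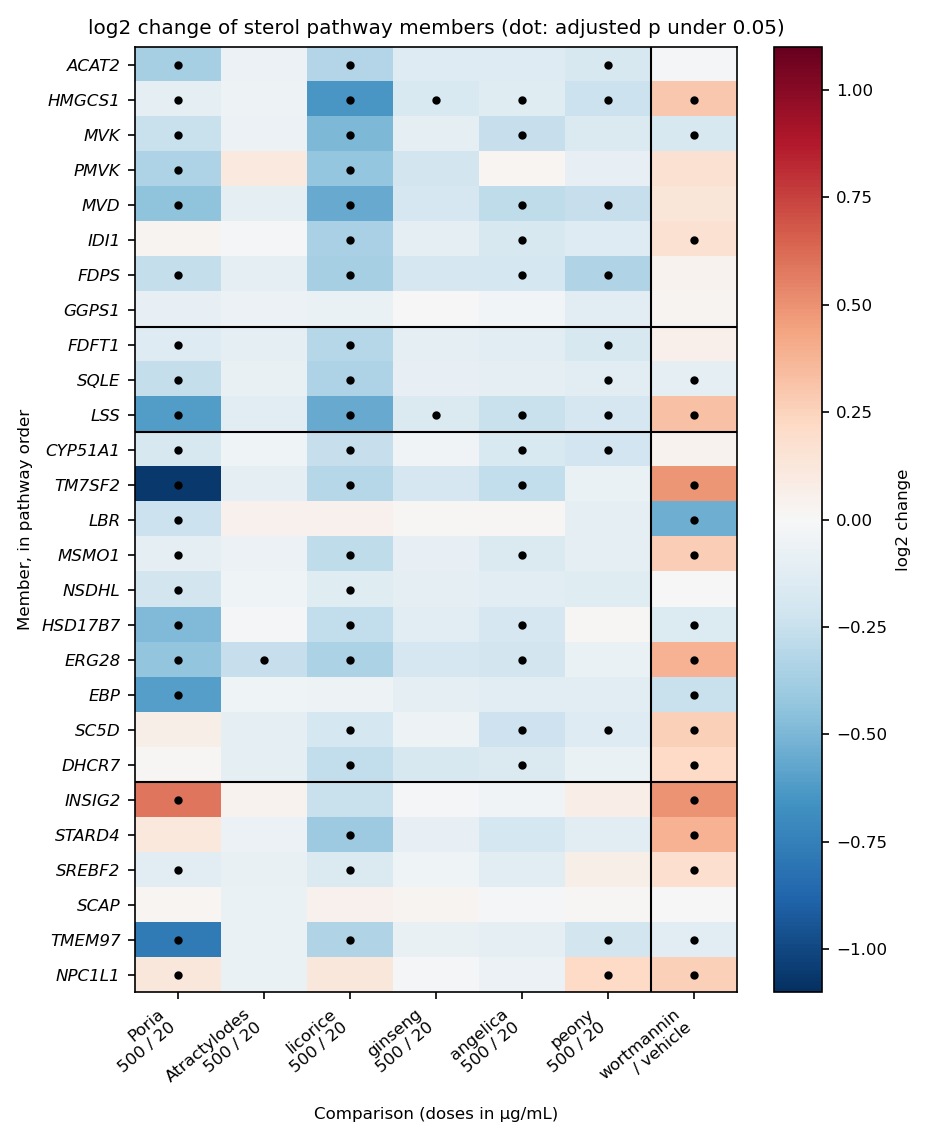
Log2 change of the 27 genes in pathway order (rows) for 500 over 20 µg/mL of each of the 6 extracts and for wortmannin over vehicle (columns), with a dot where the edgeR adjusted p was under 0.05. Blue, meaning lower, runs through most rows of Poria and licorice and is paler in angelica and peony, while the wortmannin column holds 12 higher and 6 lower genes.

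By stage of the pathway, the falls in Poria comprised 6 of the 8 genes up to the isoprenoids, 3 of 3 from squalene synthesis to lanosterol, 8 of 10 from lanosterol to cholesterol and 2 of 6 for sensing and transport. In licorice these numbers were 7, 3, 8 and 3. In angelica they were 5, 1, 7 and 0, and in peony 4, 3, 2 and 1. HMGCS1 and LSS passed as lower in 5 of the 6 extracts, and MVD, FDPS, CYP51A1 and ERG28 in 4. GGPS1, INSIG2, SCAP and NPC1L1 passed as lower in 0 of 6. The share of all genes that passed in as many extracts was not counted. Several of these calls, among them both in ginseng, were lost when 1 library was left out, as given below. The libraries at 500 and 20 µg/mL did not overlap for 22 of 27 genes in Poria, 25 in licorice, 18 in angelica, 17 in peony, 17 in ginseng and 8 in Atractylodes. Among all genes tested, 50%, 34.3%, 14.4%, 19%, 10.5% and 11.6% did not overlap in the same order of extracts.

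In Poria the widest change was that of TM7SF2, one of the pair of reductases that act on the sterol made by lanosterol demethylation (ENSG00000149809, chr11:65111845-65116384, + strand). TM7SF2 had 41.2, 42.0 and 41.2 CPM at 500 µg/mL, against 86.8, 86.8 and 85.7 CPM at 20 µg/mL. The groups did not overlap, and TM7SF2 fell by 1.06 ± 0.055 on the log2 scale (SE; 2.08-fold lower; edgeR adjusted p = 9.34e-22). TMEM97, a sterol-responsive membrane protein that binds the lysosomal cholesterol transporter NPC1, had 141, 127 and 131 CPM at 500 µg/mL, against 238, 226 and 220 CPM at 20 µg/mL (ENSG00000109084, chr17:28319095-28328685, +). All libraries at 500 µg/mL were below all at 20 µg/mL, with a log2 change of −0.78 ± 0.040 (1.71-fold lower; edgeR adjusted p = 5.26e-22). LSS, the cyclase that forms lanosterol, had 189, 189 and 181 CPM at 500 µg/mL and 291, 289 and 274 CPM at 20 µg/mL (ENSG00000160285, chr21:46188141-46228824, −). Its log2 change was −0.61 ± 0.032 (1.53-fold lower; edgeR adjusted p = 4.68e-22). EBP, the isomerase of the sterol ring, had 83.4, 83.5 and 82.2 CPM at 500 µg/mL and 133, 117 and 131 CPM at 20 µg/mL (ENSG00000147155, chrX:48521158-48528716, +), a log2 change of −0.61 ± 0.064 (edgeR adjusted p = 2.09e-11). The other falls ran on the log2 scale between −0.49 for HSD17B7 and −0.10 for MSMO1 and HMGCS1, with MVD at −0.44, ERG28 at −0.44 and ACAT2, the first thiolase, at −0.36.

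Of the sensing genes in Poria, INSIG2 rose (ENSG00000125629, chr2:118088452-118110997, +). It encodes the second of the proteins that retain SCAP. INSIG2 had 73.5, 105 and 99.1 CPM at 500 µg/mL, against 53.6, 64.6 and 66.3 CPM at 20 µg/mL. The lowest library at 500 µg/mL lay above the highest at 20 µg/mL, and the log2 change was 0.59 ± 0.095 (1.5-fold higher; edgeR adjusted p = 1.02e-06). NPC1L1, a transporter that takes up cholesterol at the canalicular membrane, rose by 0.13 on the log2 scale. IDI1, GGPS1, SC5D, DHCR7, STARD4 and SCAP did not pass, with log2 changes between −0.09 and 0.12. Leaving out each library in turn, 16 of the 21 calls held throughout. HMGCS1 lost its call without Poria 20 µg/mL replicate 1 (adjusted p = 0.0551). PMVK lost it without 500 replicate 1 (0.118) or 20 replicate 3 (0.0807). MSMO1 lost it without 500 replicate 1 or 3 or 20 replicate 2 or 3 (0.128 to 0.247). SREBF2, at −0.11, lost it without 500 replicate 2 or 3 or 20 replicate 1 or 2 (0.0606 to 0.389), and NPC1L1 without 500 replicate 1 or 20 replicate 1 or 3 (0.0671 to 0.239).

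In licorice the widest changes were in HMGCS1, MVD, LSS, MVK and PMVK. HMGCS1 had 425, 431 and 433 CPM at 500 µg/mL, against 662, 678 and 665 CPM at 20 µg/mL (ENSG00000112972, chr5:43289395-43313512, −). The groups lay far apart, and HMGCS1 fell by 0.64 ± 0.033 on the log2 scale (1.56-fold lower; edgeR adjusted p = 2.64e-21). MVD, which decarboxylates mevalonate diphosphate, had 135, 152 and 142 CPM at 500 µg/mL and 200, 216 and 212 CPM at 20 µg/mL (ENSG00000167508, chr16:88651935-88663161, −). Its log2 change was −0.55 ± 0.058 (1.47-fold lower; edgeR adjusted p = 1.26e-10). LSS had 201, 208 and 208 CPM at 500 µg/mL and 299, 309 and 295 CPM at 20 µg/mL, a log2 change of −0.55 ± 0.031 (edgeR adjusted p = 9.05e-20). MVK, the mevalonate kinase, had 57.7, 67.0 and 61.2 CPM at 500 µg/mL and 83.9, 91.4 and 86.4 CPM at 20 µg/mL, a log2 change of −0.49 ± 0.050 (1.41-fold lower; edgeR adjusted p = 3.72e-11). PMVK, which follows MVK in the pathway, had 6.75, 7.4 and 7.96 CPM at 500 µg/mL and 8.83, 10.4 and 10.4 CPM at 20 µg/mL, a log2 change of −0.42 ± 0.104 (1.34-fold lower; edgeR adjusted p = 0.00188). In all 5 genes the libraries of the doses did not overlap.

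The other 16 falls in licorice ran on the log2 scale between −0.40 for STARD4, a carrier of sterol between membranes, and −0.13 for NSDHL, a dehydrogenase of the demethylase complex. FDPS, the farnesyl diphosphate synthase, was at −0.36, IDI1, the isopentenyl diphosphate isomerase, at −0.35, SQLE at −0.34 and DHCR7, the reductase of the last step, at −0.27. GGPS1, LBR, EBP, INSIG2, SCAP and NPC1L1 did not pass. Of the 21 calls, 19 held whichever library was left out. NSDHL lost its call without licorice 500 replicate 1 or 3 or 20 replicate 1 or 2 (adjusted p = 0.0606 to 0.105), and SREBF2, at −0.16, without 500 replicate 2 (0.0636). Of the 6 hepatocyte markers, 4 also fell and 1 rose in licorice at 500 over 20 µg/mL, with ALB at −0.49 ± 0.054 on the log2 scale and TF at −0.43. In Poria 2 fell and 1 rose, with FGB, a fibrinogen chain, at −0.36 ± 0.034 and ALB at −0.22. Of all genes, 21.3% were called in licorice and 43.5% in Poria; the part of these changes in the results on the cholesterol genes was not tested.

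Angelica gave smaller falls. The widest was that of MVD, with 173, 185 and 173 CPM at 500 µg/mL, against 204, 212 and 226 CPM at 20 µg/mL, a log2 change of −0.28 ± 0.058 (edgeR adjusted p = 0.00374, and 0.0765 without angelica 20 replicate 3). TM7SF2 had 80.0, 87.5 and 82.2 CPM at 500 µg/mL and 93.4, 101 and 106 CPM at 20 µg/mL, a log2 change of −0.27 ± 0.052 (edgeR adjusted p = 0.00145, and 0.0507 without angelica 20 replicate 3). MVK had 77.4, 82.2 and 74.5 CPM at 500 µg/mL and 87.1, 93.6 and 98.5 CPM at 20 µg/mL, a log2 change of −0.25 ± 0.049 (edgeR adjusted p = 0.00126). For these 3 genes, as for the next, no library at 500 µg/mL reached one at 20 µg/mL. LSS had 252, 256 and 249 CPM at 500 µg/mL and 297, 302 and 300 CPM at 20 µg/mL, a log2 change of −0.25 ± 0.031 (edgeR adjusted p = 3.24e-07). SC5D, the sterol desaturase ahead of DHCR7, had 187, 165 and 175 CPM at 500 µg/mL and 204, 203 and 208 CPM at 20 µg/mL, a log2 change of −0.22 ± 0.042 (edgeR adjusted p = 0.000842). Vehicle libraries of SC5D ran from 163 to 181 CPM, so this fall between doses was not a fall below vehicle. All SC5D libraries lay below every vehicle library in 0 of the 19 other groups. Only the calls of MVK, LSS and SC5D held under every library left out. The count of 13 fell to 8 without angelica 500 replicate 2, to 5 without 20 replicate 2, to 5 without 500 replicate 3 and to 6 without 20 replicate 3, and when the fit held only the libraries of these groups MVD and LSS alone passed (MVK and SC5D had an adjusted p of 0.115 each).

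In peony the widest change was that of FDPS, with 250, 248 and 234 CPM at 500 µg/mL, against 294, 342 and 283 CPM at 20 µg/mL. No library overlapped, and the log2 change was −0.33 ± 0.049 (edgeR adjusted p = 8.21e-06). MVD had 180, 185 and 183 CPM at 500 µg/mL and 202, 240 and 213 CPM at 20 µg/mL, a log2 change of −0.26 ± 0.058 (edgeR adjusted p = 0.0044, and 0.131 without peony 20 replicate 2). HMGCS1 had 525, 511 and 511 CPM at 500 µg/mL and 611, 612 and 600 CPM at 20 µg/mL, a log2 change of −0.24 ± 0.033 (edgeR adjusted p = 1.8e-06). In CYP51A1, the lanosterol demethylase, 254, 264 and 259 CPM stood at 500 µg/mL and 294, 303 and 301 CPM at 20 µg/mL, a log2 change of −0.21 ± 0.045 (edgeR adjusted p = 0.00239). NPC1L1 rose, with 66.5, 68.8 and 69.0 CPM at 500 µg/mL against 60.3, 54.6 and 60.7 CPM at 20 µg/mL, a log2 change of 0.22 ± 0.048 (edgeR adjusted p = 0.00347, and 0.0817 without peony 20 replicate 2). Peony 20 replicate 2 was the highest of its group for FDPS and MVD and the lowest for NPC1L1, and 7 genes passed without it. Of the 11 calls, 7 held whichever library was left out, and 3 genes passed in a fit of these groups alone.

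Few of these genes were called in ginseng and Atractylodes at 500 over 20 µg/mL. In each extract 24 of the 27 had a negative log2 change and 3 a positive one, while the median over all genes was 0 and 0.001. The edgeR unadjusted p was under 0.05 for 15 of the 27 in ginseng and 7 in Atractylodes. The same held for 877 and 833 of all 16093 genes. In ginseng, HMGCS1 had 576, 583 and 572 CPM at 500 µg/mL, against 664, 629 and 648 CPM at 20 µg/mL, a log2 change of −0.17 ± 0.033 (edgeR adjusted p = 0.0108). LSS had 256, 279 and 266 CPM at 500 µg/mL and 294, 302 and 297 CPM at 20 µg/mL, a log2 change of −0.16 ± 0.031 (edgeR adjusted p = 0.0108). Neither gene's libraries overlapped between doses. Both calls were lost without ginseng 500 replicate 1 (0.102 for HMGCS1 and 0.323 for LSS), 500 replicate 3 (0.0885 for both) or 20 replicate 3 (0.0531 for both); HMGCS1 was also lost without 20 replicate 1 (0.141) and LSS without 20 replicate 2 (0.138). DHCR7 was at −0.18 ± 0.042 in ginseng without passing (edgeR adjusted p = 0.0698). In Atractylodes, ERG28, the scaffold of the sterol demethylase complex, had 102, 103 and 110 CPM at 500 µg/mL and 124, 127 and 126 CPM at 20 µg/mL (ENSG00000133935, chr14:75649791-75661189, −). Its log2 change was −0.25 ± 0.047 (edgeR adjusted p = 0.00968), with adjusted p of 0.057 to 0.181 without Atractylodes 500 replicate 1 or 2 or 20 replicate 2 or 3.

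The calls in Poria and in licorice were split by dose step with the middle dose. A call at 1 step only does not show that the steps differed. When that difference was tested (below), 10 of the 27 genes passed in Poria and 2 in licorice. In Poria, 20 genes fell at 100 over 20 µg/mL, where 18.9% of all genes were called and 8.9% fell, and 9 changed at 500 over 100 µg/mL, where 19.1% of all genes were called (10.7% higher, 8.48% lower): 6 rose and 3 fell. In licorice, 3 genes fell at 100 over 20 µg/mL, where 1.5% of all genes were called and 0.92% fell, and 16 fell at 500 over 100 µg/mL, where 9.33% of all genes were called and 4.55% fell. In Poria 13 genes passed as lower at the lower step only and 3 at both. Another 4 passed as lower and then as higher, 2 passed as higher at the upper step only and 5 passed at neither. In licorice 14 genes passed as lower at the upper step only, 2 at both, 1 at the lower step only and 10 at neither.

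In the Poria series, TM7SF2, EBP and TMEM97 fell at both steps. Between 86.8, 86.8 and 85.7 CPM at 20 µg/mL and 41.2, 42.0 and 41.2 CPM at 500 µg/mL, TM7SF2 had 49.8, 55.4 and 59.0 CPM at 100 µg/mL. Its log2 changes were −0.66 ± 0.054 at the lower step and −0.40 ± 0.057 at the upper (edgeR adjusted p = 4.04e-07 at the upper). LSS had 197, 194 and 197 CPM at 100 µg/mL, close to its 500 µg/mL libraries, and fell by 0.54 ± 0.032 at the lower step. ERG28 had 108, 107 and 101 CPM at 20 µg/mL, 69.6, 79.4 and 80.8 CPM at 100 µg/mL and 79.0, 76.6 and 78.1 CPM at 500 µg/mL. The fall of ERG28 thus stood at 100 µg/mL, by 0.46 ± 0.048 on the log2 scale, and this call held under every library left out. The 500 µg/mL libraries lay within the range of the 100 µg/mL libraries only through replicate 1 at 100 µg/mL (69.6 CPM). All of them lay below replicates 2 and 3 at 100 µg/mL. EBP passed at the lower step with a log2 change of −0.21, but not without Poria 20 replicate 1 (adjusted p = 0.0798), 20 replicate 3 (0.0585), 100 replicate 2 (0.17) or 100 replicate 3 (0.137). EBP had 131, 99.0 and 99.9 CPM at 100 µg/mL, and without replicate 1, the highest of these, its log2 change was −0.35 at the lower step and −0.26 at the upper, where it was −0.40 with all libraries.

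SC5D, DHCR7, HMGCS1 and MSMO1 passed as lower at the lower step of Poria and as higher at the upper, but none of the 4 held both calls whichever library was left out; the library values of SC5D and HMGCS1 are given here after they were seen. SC5D had 181, 186 and 187 CPM at 20 µg/mL, 154, 163 and 175 CPM at 100 µg/mL and 194, 198 and 188 CPM at 500 µg/mL. All libraries at 100 µg/mL lay below those of both other doses, and the log2 change at the upper step was 0.24 ± 0.042 (edgeR adjusted p = 3.4e-05). HMGCS1 had 674, 658 and 669 CPM at 20 µg/mL, 610, 565 and 565 CPM at 100 µg/mL and 627, 617 and 619 CPM at 500 µg/mL, with a log2 change of 0.10 ± 0.033 at the upper step (edgeR adjusted p = 0.0283). Without Poria 100 replicate 1, 17 genes passed at the lower step and 5 at the upper, and 5 passed at the upper step in a fit of its groups alone. At the upper step TM7SF2, EBP, SC5D and TMEM97 held under every library left out. At the lower step SC5D lost its fall without 100 replicate 1 (adjusted p = 0.0563) and DHCR7 without 100 replicate 1 (0.121) or 20 replicate 2 (0.0885). At the upper step MSMO1 lost its rise without 100 replicate 1 (0.0784) or 500 replicate 2 (0.205), DHCR7 without 100 replicate 1 (0.0625) and HMGCS1 without 500 replicate 1, 100 replicate 2 or 100 replicate 3 (0.0725 to 0.111). INSIG2 lost its rise at this step without 100 replicate 1, 500 replicate 2 or 500 replicate 3 (0.0564 to 0.116).

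**Figure D3:**
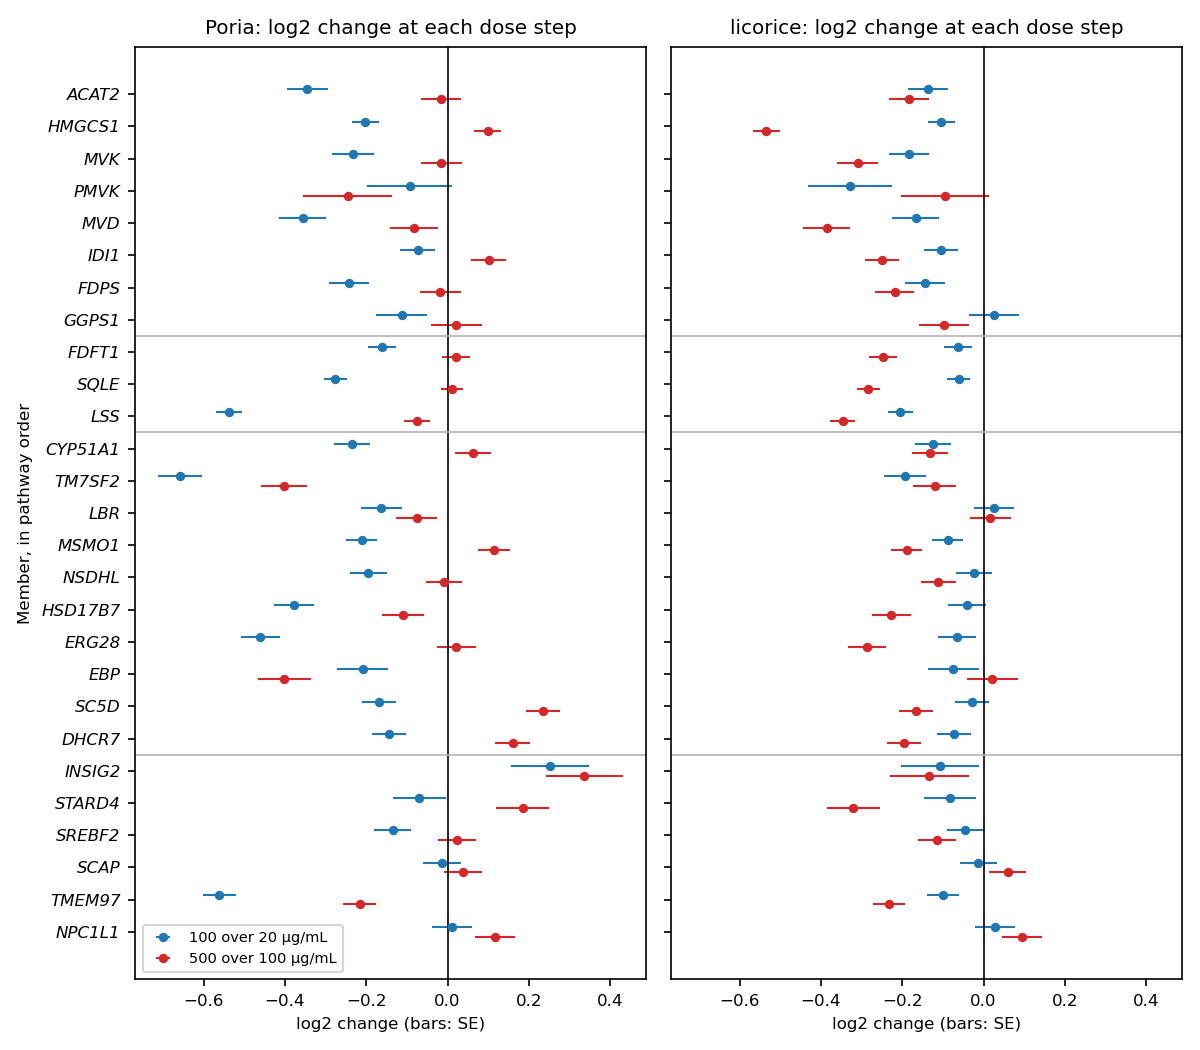
Log2 change with its SE of each of the 27 genes at 100 over 20 µg/mL (blue) and at 500 over 100 µg/mL (red), for Poria and for licorice. In Poria the blue points lie furthest below 0 for TM7SF2, TMEM97, LSS and ERG28, and in licorice the red points do so for HMGCS1, MVD and LSS.

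In the licorice series HMGCS1 had 662, 678 and 665 CPM at 20 µg/mL, 638, 613 and 615 CPM at 100 µg/mL and 425, 431 and 433 CPM at 500 µg/mL. At the upper step its log2 change was −0.53 ± 0.033 (edgeR adjusted p = 6.62e-18). At the lower step it was −0.10 ± 0.033 without passing (edgeR adjusted p = 0.104), although the libraries did not overlap. SQLE, named after its values were seen, had 505, 502 and 494 CPM at 20 µg/mL, 482, 478 and 480 CPM at 100 µg/mL and 399, 391 and 393 CPM at 500 µg/mL. Its log2 change at the upper step was −0.28 ± 0.028. LSS fell at both steps, with 257, 262 and 264 CPM at 100 µg/mL and a log2 change of −0.21 ± 0.031 at the lower step (edgeR adjusted p = 2.47e-05). MVK and TM7SF2 also passed at the lower step (adjusted p = 0.0402 and 0.0413), but only LSS passed without licorice 100 replicate 1, 2 or 3 or without 20 replicate 2 or 3, and 0 passed in a fit of these groups alone. At the upper step 15 of the 16 calls held under every library left out.

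Whether the upper step differed from the lower was tested as 1 contrast, chosen after the steps had been seen. In Poria it differed for 10 genes, against 1.3% of all genes, and in each the upper step was the more positive. LSS differed by 0.46 ± 0.055 on the log2 scale (edgeR adjusted p = 1.53e-07) and SC5D by 0.40 ± 0.074. In licorice HMGCS1 differed by −0.43 ± 0.057 (edgeR adjusted p = 1.83e-06) and SQLE by −0.22 (adjusted p = 0.00908, and 0.0613 without licorice 100 replicate 3), against 0.559% of all genes. With only the libraries of the extract in the fit, 0 genes passed in Poria and 1 in licorice, and 9 passed in Poria without Poria 100 replicate 1. In the other 4 extracts edgeR and DESeq2 called 0 of the 27 genes in this contrast. The edgeR unadjusted p was under 0.05 for 2 in Atractylodes, 0 in ginseng, 1 in angelica and 1 in peony. Of all 16093 genes, 559, 518, 595 and 902 had such a p in that order. Called by edgeR were 0%, 0.0124%, 0.00621% and 0.0559% of all genes.

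In Atractylodes, ginseng, angelica and peony edgeR and DESeq2 called 0 of the 27 genes at 100 over 20 µg/mL. Of all genes, edgeR called 0%, 0%, 0.00621% and 0.0249% there. The edgeR unadjusted p was under 0.05 for 2, 4, 4 and 8 of the 27, and for 772, 567, 899 and 977 of all 16093 genes. At 500 over 100 µg/mL edgeR and DESeq2 called 0 in Atractylodes and ginseng, where edgeR called 0.00621% and 0.0435% of all genes. Here 5 and 10 of the 27 had an edgeR unadjusted p under 0.05, as did 481 and 621 of all 16093 genes. In angelica edgeR called LSS alone, at −0.14 ± 0.031 on the log2 scale (edgeR adjusted p = 0.0176), where 0.255% of all genes were called. This call was lost without angelica 100 replicate 1 or 2 or 500 replicate 2 or 3. In peony edgeR called HMGCS1, FDFT1, SQLE and TMEM97, all lower, where 1.17% of all genes were called. HMGCS1 was at −0.22 ± 0.033 (edgeR adjusted p = 1.51e-05) and held under every library left out; of the 4, only 1 or 2 passed without any one of the 6 peony libraries at these doses. Group means nonetheless fell at each step, 100 below 20 and 500 below 100, for 20 genes in angelica and in peony and 18 in ginseng and in Atractylodes, against 22 in licorice and 12 in Poria. Among all genes this order of means held for 19.4% in angelica, 20.9% in peony, 18.9% in ginseng, 17.9% in Atractylodes, 25.9% in licorice and 30.5% in Poria.

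The change between 500 and 20 µg/mL was then compared between the extracts of a set. Poria differed from Atractylodes in 16 of the 27 genes, 13 more negative and 3 more positive, against 29.5% of all genes. TM7SF2 differed by −0.96 ± 0.076 on the log2 scale (edgeR adjusted p = 1.24e-14), TMEM97 by −0.70 ± 0.056 (1.46e-14) and EBP by −0.57 ± 0.089 (1.26e-06), while INSIG2 differed by 0.55 ± 0.135. Licorice differed from ginseng in 11 genes, all more negative, against 8.8% of all genes. HMGCS1 differed by −0.47 ± 0.047 (edgeR adjusted p = 6.73e-11), MVK by −0.40 ± 0.070 (5.44e-05) and LSS by −0.40 ± 0.044 (2.26e-09). Angelica differed from peony in NPC1L1 alone, by −0.29, against 0.932% of all genes, and this call was lost without any one of 7 of the 12 libraries (adjusted p = 0.0589 to 0.129). In a joint test over the 6 extracts, the changes of 23 of the 27 genes differed, against 35.1% of all genes. GGPS1, NSDHL, SREBF2 and SCAP did not pass this test (edgeR adjusted p = 0.845, 0.401, 0.0525 and 0.626).

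With wortmannin 12 of the 27 genes rose and 6 fell relative to vehicle, where 46.3% of all genes were called (22.3% higher, 24% lower). The median log2 change of the 27 genes was 0.13, against 0.01 over all genes. By stage, 2 genes rose and 1 fell up to the isoprenoids, 1 rose and 1 fell from squalene synthesis to lanosterol, 5 rose and 3 fell from lanosterol to cholesterol, and 4 rose and 1 fell among the sensing and transport genes. The sterol reductases TM7SF2 and LBR, which act at the same point of the pathway, moved in opposite directions. LBR, which is also a receptor for lamin B in the nuclear membrane, had 85.1, 81.4 and 85.1 CPM in wortmannin libraries, against 126, 118 and 120 CPM in vehicle libraries (ENSG00000143815, chr1:225401502-225428925, −). The groups lay apart, with a log2 change of −0.54 ± 0.051 (edgeR adjusted p = 1.05e-12). TM7SF2 had 127, 131 and 131 CPM in wortmannin libraries and 91.1, 97.4 and 89.1 CPM in vehicle libraries, a log2 change of 0.49 ± 0.051 (edgeR adjusted p = 2.47e-11).

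INSIG2 had 67.9, 64.6 and 70.5 CPM in wortmannin libraries and 48.4, 47.2 and 48.7 CPM in vehicle libraries, a log2 change of 0.49 ± 0.096 (edgeR adjusted p = 2.99e-05). STARD4 had 98.4, 97.3 and 104 CPM in wortmannin libraries and 81.9, 71.8 and 75.6 CPM in vehicle libraries, a log2 change of 0.39 ± 0.064 (edgeR adjusted p = 1.64e-06). For ERG28 the values were 153, 143 and 155 CPM in wortmannin libraries and 117, 110 and 119 CPM in vehicle libraries, a log2 change of 0.38 ± 0.046 (edgeR adjusted p = 9.81e-10). In each of these genes every wortmannin library was above every vehicle library. HMGCS1 rose by 0.30 on the log2 scale, LSS by 0.32, SREBF2 by 0.19 and NPC1L1 by 0.27. EBP fell by 0.24, MVK by 0.18 and HSD17B7 by 0.15; TMEM97 fell by 0.13 (edgeR adjusted p = 0.00672), but did not pass without vehicle replicate 1 (0.0571).

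**Figure D4:**
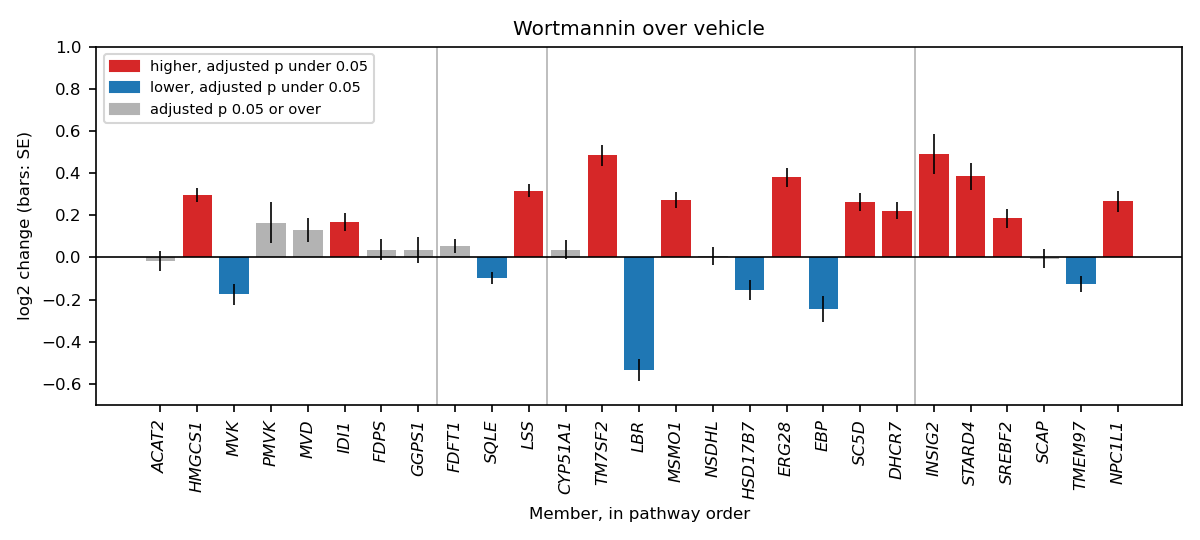
Log2 change with its SE of the 27 genes in pathway order for wortmannin over vehicle (3 libraries each); red bars passed as higher, blue bars passed as lower and grey bars did not pass an edgeR adjusted p of 0.05. LBR at −0.54 and TM7SF2 at 0.49 are near opposite ends of the range.

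Against vehicle, the extract groups share the same 3 control libraries, so their values are given side by side only. The shares of all genes beside these counts are for either direction, and those for rises or falls alone are not given. At 500 µg/mL, 19 genes changed in Poria (3 higher, 16 lower; 47.6% of all genes), 19 in licorice (2 higher, 17 lower; 32.3%), 10 in angelica (1 and 9; 18.5%), 9 in peony (2 and 7; 19.5%) and 5 in ginseng (2 and 3; 9.99%). In Atractylodes edgeR called 0 (0.882% of all genes), and 2 without Atractylodes 500 replicate 1, while DESeq2 called 2. There 10 of the 27 had an edgeR unadjusted p under 0.05, as did 2119 of all 16093 genes. TM7SF2 stood at −1.16 ± 0.055 and TMEM97 at −0.88 ± 0.040 in Poria over vehicle, on the log2 scale. HMGCS1 was at −0.64 ± 0.033 in licorice, −0.38 ± 0.033 in peony, −0.23 ± 0.033 in angelica, −0.22 ± 0.033 in ginseng and −0.11 ± 0.033 in Poria. At 100 µg/mL the counts were 20 in Poria (1 higher, 19 lower; 30.5% of all genes; 18 without Poria 100 replicate 1), 10 in angelica (7 and 3; 14.4%), 9 in licorice (4 and 5; 16.3%), 5 in ginseng (3 and 2; 8.44%), 4 in peony (1 and 3; 10%) and 2 in Atractylodes, both higher (1.31%).

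At 20 µg/mL rises outnumbered falls among the calls against vehicle in every extract but Poria. The shares in brackets are for either direction, so this balance was not set against that of all genes. In angelica 12 genes rose and 2 fell (24.1% of all genes called), in licorice 10 rose and 2 fell (11%), in ginseng 9 rose and 1 fell (13.8%), and in peony 7 rose and 2 fell (15.5%). In Poria 2 rose and 2 fell (3.85%), and in Atractylodes 1 rose (1.03%). These counts rest on single libraries in several extracts. The 12 of licorice were 4 without vehicle replicate 2, 6 without vehicle replicate 3 and 3 without licorice 20 replicate 2. The 14 of angelica were 9 without angelica 20 replicate 3, and the 9 of peony were 5 without vehicle replicate 2, peony 20 replicate 1 or peony 20 replicate 2. The 4 of Poria were 2 without vehicle replicate 1 and 0 without vehicle replicate 2 or 3 or Poria 20 replicate 2 or 3. Also at 100 µg/mL, the 5 of ginseng were 3 without vehicle replicate 2 or ginseng 100 replicate 2 or 3, the 10 of angelica were 6 without vehicle replicate 3, and the 2 of Atractylodes were 0 or 1 without any one vehicle library or without Atractylodes 100 replicate 2 or 3.

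INSIG2 and TMEM97 set vehicle apart from the other groups. The vehicle libraries of INSIG2 ran from 47.2 to 48.7 CPM, and all libraries of all 19 other groups were higher, those of the extracts at 50.9 to 105 CPM; 0.205% of all genes tested had 19 of 19 groups above every vehicle library. INSIG2 passed against vehicle in every extract group other than Atractylodes at 20 and 500 µg/mL (edgeR adjusted p = 0.116 and 0.0685). Its call was lost in Atractylodes at 100 µg/mL without any one vehicle library or without Atractylodes 100 replicate 2 or 3 (0.106 to 0.604), in Poria at 20 µg/mL without any one vehicle library or without Poria 20 replicate 2 or 3 (0.0593 to 0.181), and in licorice at 500 µg/mL without vehicle replicate 2 (0.0534). TMEM97 had 241 to 254 CPM in vehicle libraries, and in 17 of the 19 other groups all libraries lay below that range, a pattern shared by 1.26% of all genes tested. Since there is 1 vehicle group, a property of its 3 libraries or its DMSO cannot be told apart from an effect shared by the extracts and wortmannin.

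**Figure D5:**
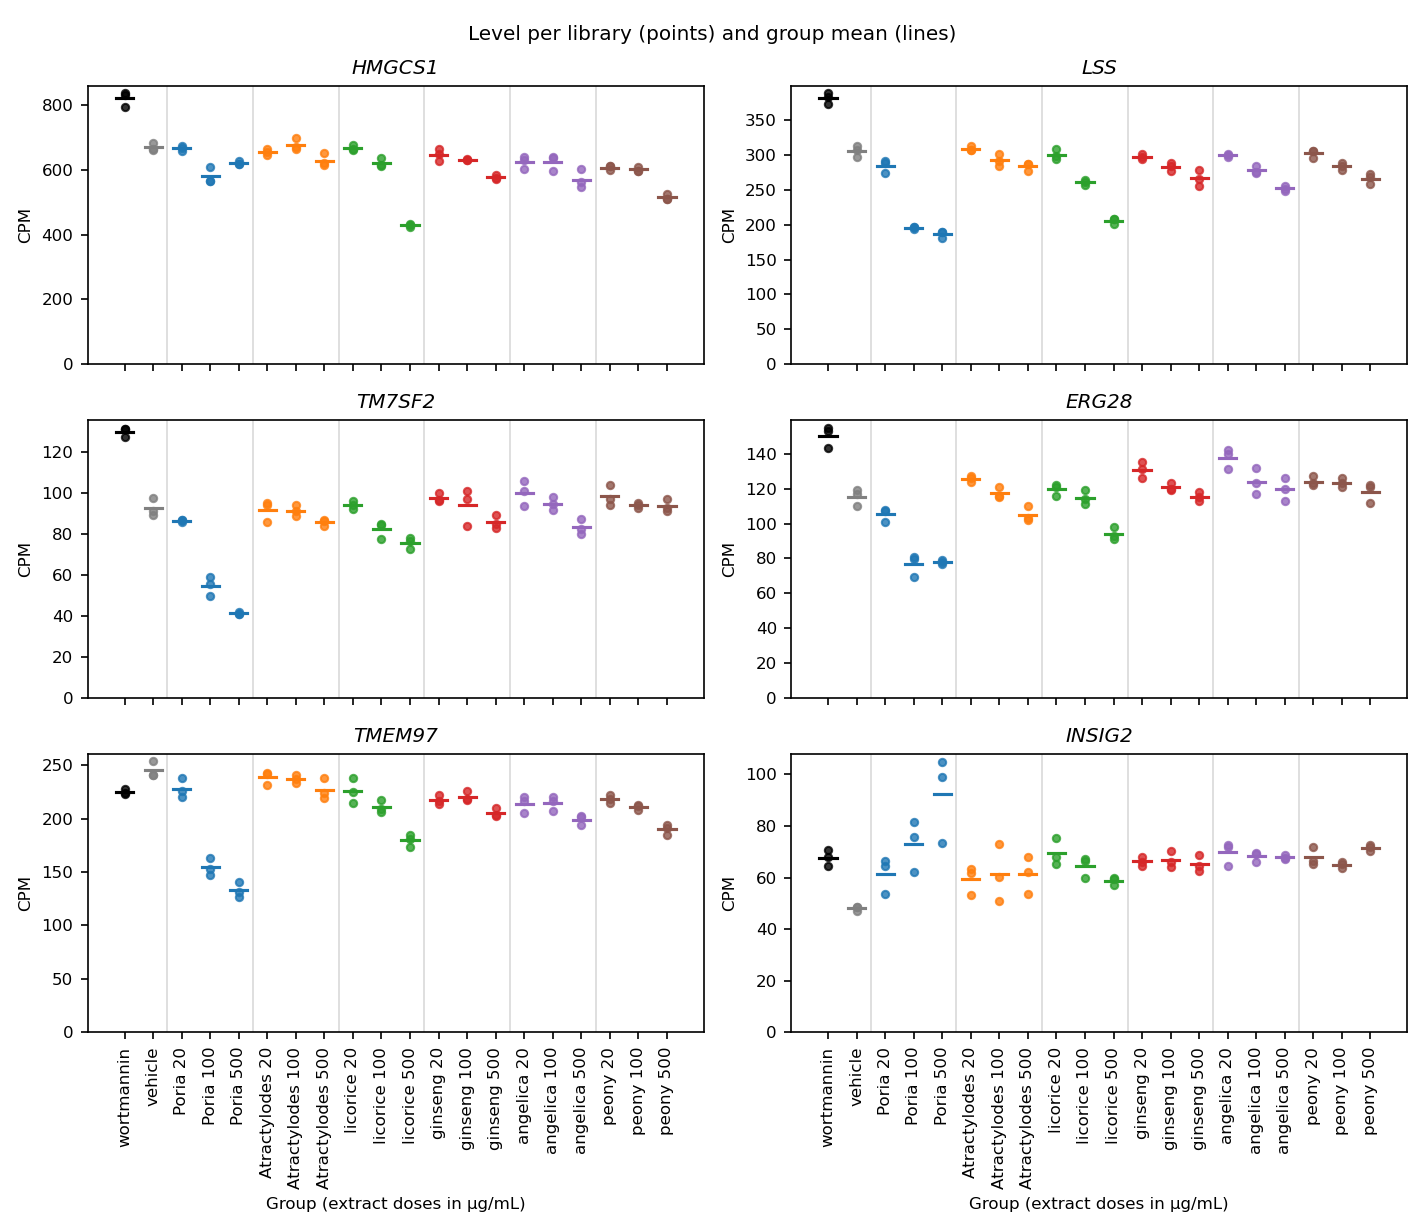
CPM in each of the 60 libraries for HMGCS1, LSS, TM7SF2, ERG28, TMEM97 and INSIG2, with wortmannin and vehicle at the left and then each extract at 20, 100 and 500 µg/mL. TM7SF2 is lowest in Poria at 500 µg/mL (41.2 to 42.0 CPM) and HMGCS1 in licorice at 500 µg/mL (425 to 433 CPM), and the vehicle points of INSIG2 lie below all others.

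Genes around the pathway were counted in 4 lists. For fatty acid synthesis, whose genes SREBP factors also bind, 8 of 11 tested genes fell at 500 over 20 µg/mL in Poria and 7 in licorice, 4 in angelica, 4 in peony, 2 in ginseng and 1 in Atractylodes, all of the changes being falls. Among all genes, falls made up 21.3% in Poria, 10.2% in licorice, 0.696% in angelica, 1.74% in peony, 0.124% in ginseng and 0.0373% in Atractylodes. GPAM, the first acyltransferase of glycerolipid synthesis, was at −1.06 ± 0.044 in Poria and −0.45 in licorice on the log2 scale. ACSS2, which makes acetyl-CoA from acetate, was at −0.62 ± 0.041 in Poria, −0.61 ± 0.040 in licorice, −0.41 in angelica, −0.31 in ginseng and −0.26 in peony. FADS2, a fatty acid desaturase, was at −0.18 in Atractylodes, −0.17 in ginseng, −0.23 in angelica and −0.23 in peony. With wortmannin over vehicle, 6 of these genes rose and 3 fell, with ACSS2 at 0.70 ± 0.039 and FADS1 at −0.33.

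Of 12 genes for SREBP processing and enzyme turnover, 4 rose and 2 fell in Poria at 500 over 20 µg/mL, a share near the 43.5% of all genes called, among them MBTPS2, the protease that makes the second cut in SREBP precursors, at −0.33 ± 0.051, and PAQR3, a Golgi anchor of SCAP, at 0.28 ± 0.081. In licorice 4 rose and 1 fell, with RNF145, a sterol-sensing ubiquitin ligase, at −0.22 ± 0.065, and in peony ERLIN2 rose by 0.15. Of 12 tested genes on the isoprenoid branch, 6 rose and 2 fell in Poria, with DHDDS, a subunit of the dolichol-forming prenyltransferase, at 0.45 ± 0.056; 1 rose and 1 fell in licorice, and in peony 1 fell. Of 11 genes for esterification and movement of sterol, 5 rose and 1 fell in Poria, with GRAMD1A, which carries sterol away from the plasma membrane, at 0.70 ± 0.068. In licorice 2 rose and 3 fell; the widest change was that of GRAMD1B at −1.43 ± 0.482, a gene of few counts, and SOAT2, a cholesterol acyltransferase, was at −0.35 ± 0.071. With wortmannin over vehicle, 5 rose and 4 fell for SREBP processing, 0 rose and 6 fell on the isoprenoid branch, with ICMT, the methyltransferase of prenylated proteins, at −0.55 ± 0.035, and 6 rose and 1 fell for esterification and movement, with GRAMD1B, a sterol carrier related to GRAMD1A, at −1.45 ± 0.410 (0.202, 0.104 and 0.268 CPM in wortmannin libraries, against 0.461, 0.487 and 0.631 CPM in vehicle libraries) and GRAMD1A at 0.62. The shares of all genes called are those given above for each comparison, 46.3% for wortmannin.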

How the data were processed

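RNA of 60 HepG2 libraries was made into directional libraries and read as paired ends of 100 bases, per the labels' protocols. FastQC 0.11.9, Trim Galore 0.6.5, STAR 2.7.3a, RSEM 1.3.3 and hg38 are named in the submitters' processing notes. The authors deposited RSEM expected counts per gene, which need not be whole (76.1% of the values above 0 were) and were rounded to whole numbers here. Of 270 columns in the table, 60 carry the names that the sample descriptions give and 210 others were not used here. The annotation release behind the counts is not given in the sources used here; GENCODE v29 gave coordinates and exon lengths.

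One edgeR 4.0.16 model held the 60 libraries, with a mean for each of the 20 groups, TMM factors, filterByExpr (minimum count 10, minimum total 15) and a quasi-likelihood test (limma 3.58.1 and R 4.3.3 underneath), adjusted by Benjamini-Hochberg over 16093 genes within each comparison at 0.05. SEs are of the log2 change. Levels of different genes were compared per kilobase of exon.

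The genes, the surrounding lists and the tests were chosen with earlier results of these data known. Library values are printed for up to 5 genes per comparison, those past the threshold with the largest change, and the 2 largest changes were taken from each surrounding list; genes given beside these were chosen after their values were seen. Alternatives were a filter at a mean of 1 CPM, no filter, size factors from DESeq2 1.42.0, its own test, a fit of the compared groups alone, a block for the replicate number, and leaving out each library. Fits without a library kept the gene filter and dispersion trend of the full fit. Counts of libraries in a group differed by more than sampling noise, so none was counted as a repeat.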

Additional observations from a re-analysis of the deposited data

Results flagged for a closer look

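These comparisons of dose effects are listed because the difference between extracts was itself tested, as an interaction contrast of 500 over 20 µg/mL in edgeR, and passed an adjusted p of 0.05. Poria minus Atractylodes passed for 16 of the 27 genes, against 29.5% of all genes. TM7SF2 stood at −0.96, TMEM97 at −0.70 and EBP at −0.57 on the log2 scale. Licorice minus ginseng passed for 11 genes, against 8.8% of all genes, with HMGCS1 at −0.47, MVK at −0.40 and LSS at −0.40. Angelica minus peony passed for 1 gene, NPC1L1, at −0.29, against 0.932% of all genes. This call did not hold under every library left out. The joint test over the 6 extracts passed for 23 genes, against 35.1% of all genes.

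Mitochondrially encoded genes took on average 12.6% of counts in Poria and 10.1% in Atractylodes at 500 µg/mL, and 10.2% in licorice and 10.3% in ginseng; the part of this share in the differences was not tested.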

How the results depend on the processing

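Counts are of the 27 genes called. No call of a gene reversed under any alternative. Of 365 calls, 2 were lost with DESeq2 size factors, 1 in the DESeq2 test, 5 with a mean of at least 1 CPM, 60 without a filter and 93 of 342 in fits of only the groups compared (own groups). At 500 over 20 µg/mL DESeq2 called 2 in Atractylodes and 4 in ginseng; without a filter ginseng had 0; own groups alone gave 0 in ginseng, 2 in angelica and 3 in peony. In dose steps, own groups alone gave 0 in licorice at 100 over 20, and at 500 over 100 gave 5 in Poria and 0 in angelica; without a filter angelica had 0 and peony 1, and DESeq2 called 2 in angelica. Over vehicle, Atractylodes 500 had 2 without a filter, 1 in own groups and 2 in DESeq2; Atractylodes 100 had 0 in own groups; ginseng 100 had 3 without a filter and 2 in own groups; own groups gave 1 in Poria 20, 6 in licorice 20, 9 in angelica 20 and 2 in peony 20; without a filter Atractylodes 20 had 2 and licorice 20 had 6. Poria minus Atractylodes had 10 without a filter and angelica minus peony 0 in own groups. Upper minus lower step had 0 in Poria in own groups, and 1 in licorice both without a filter and in own groups.

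Without 1 library at a time, the lowest and highest counts at 500 over 20 were 18 and 20 in Poria, 0 and 1 in Atractylodes, 20 and 22 in licorice, 0 and 2 in ginseng, 5 and 10 in angelica and 7 and 12 in peony. At 100 over 20 they were 17 and 20 in Poria and 1 and 3 in licorice, and at 500 over 100 they were 5 and 9 in Poria, 15 and 17 in licorice, 0 and 1 in angelica and 1 and 2 in peony. Wortmannin over vehicle gave 17 to 20. At 500 over vehicle they were 18 and 19 in Poria, 0 and 2 in Atractylodes, 16 and 18 in licorice, 4 and 6 in ginseng, 7 and 11 in angelica and 6 and 8 in peony. At 100 over vehicle they were 18 and 20, 0 and 3, 6 and 8, 3 and 7, 6 and 9, and 3 and 5 in the same order, and at 20 over vehicle 0 and 4, 0 and 2, 3 and 10, 8 and 10, 9 and 15, and 5 and 10. Poria minus Atractylodes gave 12 to 15, licorice minus ginseng 9 to 12, angelica minus peony 0 to 1, the step difference 7 to 11 in Poria and 1 to 2 in licorice, and the joint test 22 to 24. The cause of these shifts was not tested, and each of these fits also held fewer libraries.

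Replicate numbers are shared between groups. With the replicate block, 0 of 365 calls were lost and Atractylodes 500 over vehicle gained 1. With the replicate block within set, 0 of 185 were lost, and the counts were 4 in ginseng 500 over 20, 3 in angelica 500 over 100 and 2 in angelica minus peony. The median correlation of same-numbered libraries within a set was 0.01 to 0.173, against −0.076 to −0.003 for libraries of other numbers and other groups. Of 54 libraries, 42 were closest to their own number, a hint from the data and not the design. The main fit did not take the numbers as pairs.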
